A study of Mus musculus with 4 samples.

Results

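The Hox genes encode homeodomain transcription factors that give cells along the body axis and along the limb their position. The mouse has 39 of them, and all 39 were found among the 27998 genes of the count tables by their symbols, Hoxa, Hoxb, Hoxc or Hoxd followed by a number. They were described in satellite cells sorted from hindlimb muscle (ITGA7+/VCAM+/Lin-), in the same cells split by Hhip and 3 genes that mark them, and in the pericyte-like and glial-like cells that came through the sort. Satellite cells are the Pax7-positive stem cells of skeletal muscle, and those of the limb descend from the somites. Pericytes wrap small vessels, and glial cells here are those of peripheral nerve.

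Hox genes lie in 4 clusters, and the order within a cluster follows the order of use: genes with low numbers act towards the head, and those with high numbers towards the tail and, in the limb, towards the digits. In limb patterning the genes numbered 10 are known for the upper segment, those numbered 11 for the middle segment and those numbered 13 for the hand or foot. Adult cells often keep part of the combination that their precursors held, under the control of Polycomb and trithorax complexes. Hox proteins bind DNA together with TALE homeodomain partners of the Pbx, Meis and Pknox families.

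Each of the 4 strains was measured in 1 10X Genomics library from the lower hindlimbs of 2 pooled mice, and none has a replicate. B10 (labelled C57/Bl10ScsSn, 15 weeks old) is the control of mdx (C57BL/10ScSn-Dmdmdx, 11 weeks), and DBA (DBA/2, 13 weeks) is the control of D2-mdx (D2.B10-Dmdmdx, 14 weeks). Both dystrophic strains carry the mdx allele of Dmd, the gene of dystrophin. With 1 library each, the allele, age and library cannot be told apart. The sort removed cells with Cd11b, Sca1, Cd45 or Cd31 and kept those with α7-integrin and VCAM1.

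In the GENCODE M21 annotation of GRCm38, the 11 HoxA genes span chromosome 6 from 52155590 to 52260880 on the minus strand. The 10 HoxB genes span chromosome 11 from 96194316 to 96368256, the 9 HoxC genes chromosome 15 from 102921103 to 103036852 and the 9 HoxD genes chromosome 2 from 74668310 to 74765142, all on the plus strand. Exons of 6 members share bases with another counted gene of the same strand. Hoxd3 shares 53.1% of its exonic bases and Hoxd4 39.1% with Gm28230, and Hoxc10 shares 8.70% with Hoxc5, so the counts of these genes are less certain.

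The RefSeq table of promoters (GRCm38.p6) held 24 entries for 22 of the 39 members. The 250 bases before the start are shown for 3 members that separated the cell classes in different ways: Hoxa10 was high in Pax7-positive and pericyte-like cells and near background in glial-like cells, Hoxb4 was near 0 in Pax7-positive cells and present in pericyte-, glial- and endothelial-like cells, and Hoxd8 was present in all of these and higher in pericyte-like and glial-like than in Pax7-positive cells. Capitals mark CG dinucleotides, which are dense in the promoters that Polycomb complexes hold. The stretches are chr6:52240855-52241104 on the minus strand, chr11:96318017-96318266 on the plus strand and chr2:74704365-74704614 on the plus strand.
Hoxa10: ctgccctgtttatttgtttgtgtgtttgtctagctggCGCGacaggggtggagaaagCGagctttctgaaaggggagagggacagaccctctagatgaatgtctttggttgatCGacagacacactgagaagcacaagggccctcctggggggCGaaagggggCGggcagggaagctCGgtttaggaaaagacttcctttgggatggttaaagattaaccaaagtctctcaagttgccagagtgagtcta
Hoxb4: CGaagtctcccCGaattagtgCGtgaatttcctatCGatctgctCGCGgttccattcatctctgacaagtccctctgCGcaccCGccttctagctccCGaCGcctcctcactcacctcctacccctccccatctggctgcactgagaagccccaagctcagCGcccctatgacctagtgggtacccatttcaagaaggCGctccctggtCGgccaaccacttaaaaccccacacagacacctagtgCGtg
Hoxd8: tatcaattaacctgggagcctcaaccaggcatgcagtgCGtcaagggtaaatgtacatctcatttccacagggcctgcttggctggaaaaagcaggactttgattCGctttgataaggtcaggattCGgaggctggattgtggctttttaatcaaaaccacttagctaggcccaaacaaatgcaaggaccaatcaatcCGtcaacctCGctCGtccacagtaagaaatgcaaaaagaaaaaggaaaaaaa
These stretches hold 7, 14 and 6 CG dinucleotides. Hoxa10 has another entry, not printed here, with 20. The median was 12.5 over the 24 Hox entries, with a range of 2 to 35, and 6 over the 32851 promoters of the same length. The letters TGATNNAT, bound by Pbx-Hox pairs, were searched on both strands and occurred in 4 of the 24 Hox entries and in 7.68% of all promoters. TGACAG, bound by Meis, occurred in 2 of the 24 and in 15.9% of all promoters. Neither set of letters occurs in the 3 stretches printed above.

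The unit is the UMI, a unique molecular identifier that counts 1 captured RNA molecule, and levels are CPM, the UMIs of a gene scaled to the same total in each cell class and library. As 1 tag is read near the 3′ end of a molecule, CPM is not scaled by gene length. After filtering, 3279 to 6313 cells per library remained, with medians of 6666 to 10434 UMIs, and 33 barcodes occurred in more than 1 library. A cell was called Pax7-positive with a UMI of Pax7 and fewer than 3 markers of each other class, and pericyte-like, glial-like, endothelial-like or white blood cell-like with at least 3 of 6 markers of the class and no Pax7 UMI. Pax7-positive cells numbered 4380, 4174, 2662 and 3580 in B10, mdx, DBA and D2-mdx, and in all 4 libraries they held Myf5, Chodl, Cdh15, Calcr, Vcam1 and Itga7 at 2332 to 2745 CPM in sum.

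Satellite cell RNA that is free in the suspension can add UMIs to any droplet, so the sum of Myf5, Chodl, Cdh15 and Calcr was followed in each class as a share of its Pax7-positive level. It was 1.34 to 2.36% in pericyte-like cells and 0.629 to 3.93% in endothelial-like cells. In glial-like cells it was 5.31% in mdx and 5.00% in D2-mdx, 1.72% in B10 and 17.5% in DBA. White blood cell-like cells, which should lack the limb combination, held 6.003% in mdx and 6.63% in D2-mdx, and their Hox genes summed to 47.1 and 39.7 CPM. In another class, the level of a Hox gene that is high in Pax7-positive cells was therefore read against these shares.

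Pax7-positive cells used a narrow part of the 39 genes. HoxC and HoxA genes made up nearly all of their Hox UMIs: HoxC 64.9 to 67.8% and HoxA 29.6 to 31.5% across the 4 libraries, HoxD 2.28 to 3.02% and HoxB 0.290 to 0.633%. By number, genes 9 to 13 held 62.2 to 67.9%, genes 4 to 8 held 30.6 to 36.2% and genes 1 to 3 held 1.39 to 1.62%. Of the 39 genes, 10 reached 10 CPM in at least 1 library, 11 lay between 1 and 10 CPM at their highest, 14 stayed below 1 CPM and 4 (Hoxb13, Hoxd1, Hoxd12 and Hoxd13) had no UMI.

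Hoxc10, of the segment-10 group, and Hoxc9, a gene of the thoracic region, were the highest. Hoxc10 was at 104, 84.2, 118 and 83.4 CPM in B10, mdx, DBA and D2-mdx, above 93.9 to 95.9% of all genes in the tables. Hoxc9 was at 108, 83.6, 101.1 and 80.5 CPM in the same order. The 2 genes differed by less than 20 CPM in each library, and their counting intervals overlapped in B10, mdx and D2-mdx but not in DBA.

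Hoxc8 and Hoxa10 were the next highest in B10 and DBA, and both separated the control from the dystrophic libraries. Hoxc8 was at 72.2 CPM in B10 and 68.8 in DBA, but at 29.5 in mdx and 28.4 in D2-mdx. Hoxa10 was at 67.5 and 74.0 CPM in B10 and DBA and at 44.1 and 38.5 in mdx and D2-mdx. For both genes the ranges of the control and dystrophic libraries did not overlap. The same was true of Hoxc9, Hoxc10, Hoxa7, Hoxc6, Hoxc11, Hoxc4 and Hoxa5, but not of Hoxa9. The share of all genes with such ranges is not given here. In mdx Hoxa9 (37.8 CPM), Hoxc6 (33.2) and Hoxa7 (30.9) lay above Hoxc8, and in D2-mdx Hoxa7 (35.8) and Hoxa9 (31.7) did.

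Over the 4 libraries Hoxa7 was at 30.9 to 43.5 CPM, Hoxa9 at 31.7 to 39.2, Hoxc6 at 22.0 to 40.2, Hoxc11 at 22.0 to 37.7, Hoxc4 at 13.2 to 27.3 and Hoxa5 at 4.78 to 11.4. Hoxd8 (6.57 to 9.88 CPM), Hoxc5 (2.81 to 7.65), Hoxa3 (2.83 to 6.54), Hoxd9 (3.51 to 6.04) and Hoxa11 (1.59 to 5.73) lay between 1 and 10 CPM. Hoxa13, of the foot group, was at 0.405 to 1.55 CPM. Among HoxB genes, Hoxb2 was the highest at 1.01 to 1.49 CPM, and none of the others passed 0.602.

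**Figure D1:**
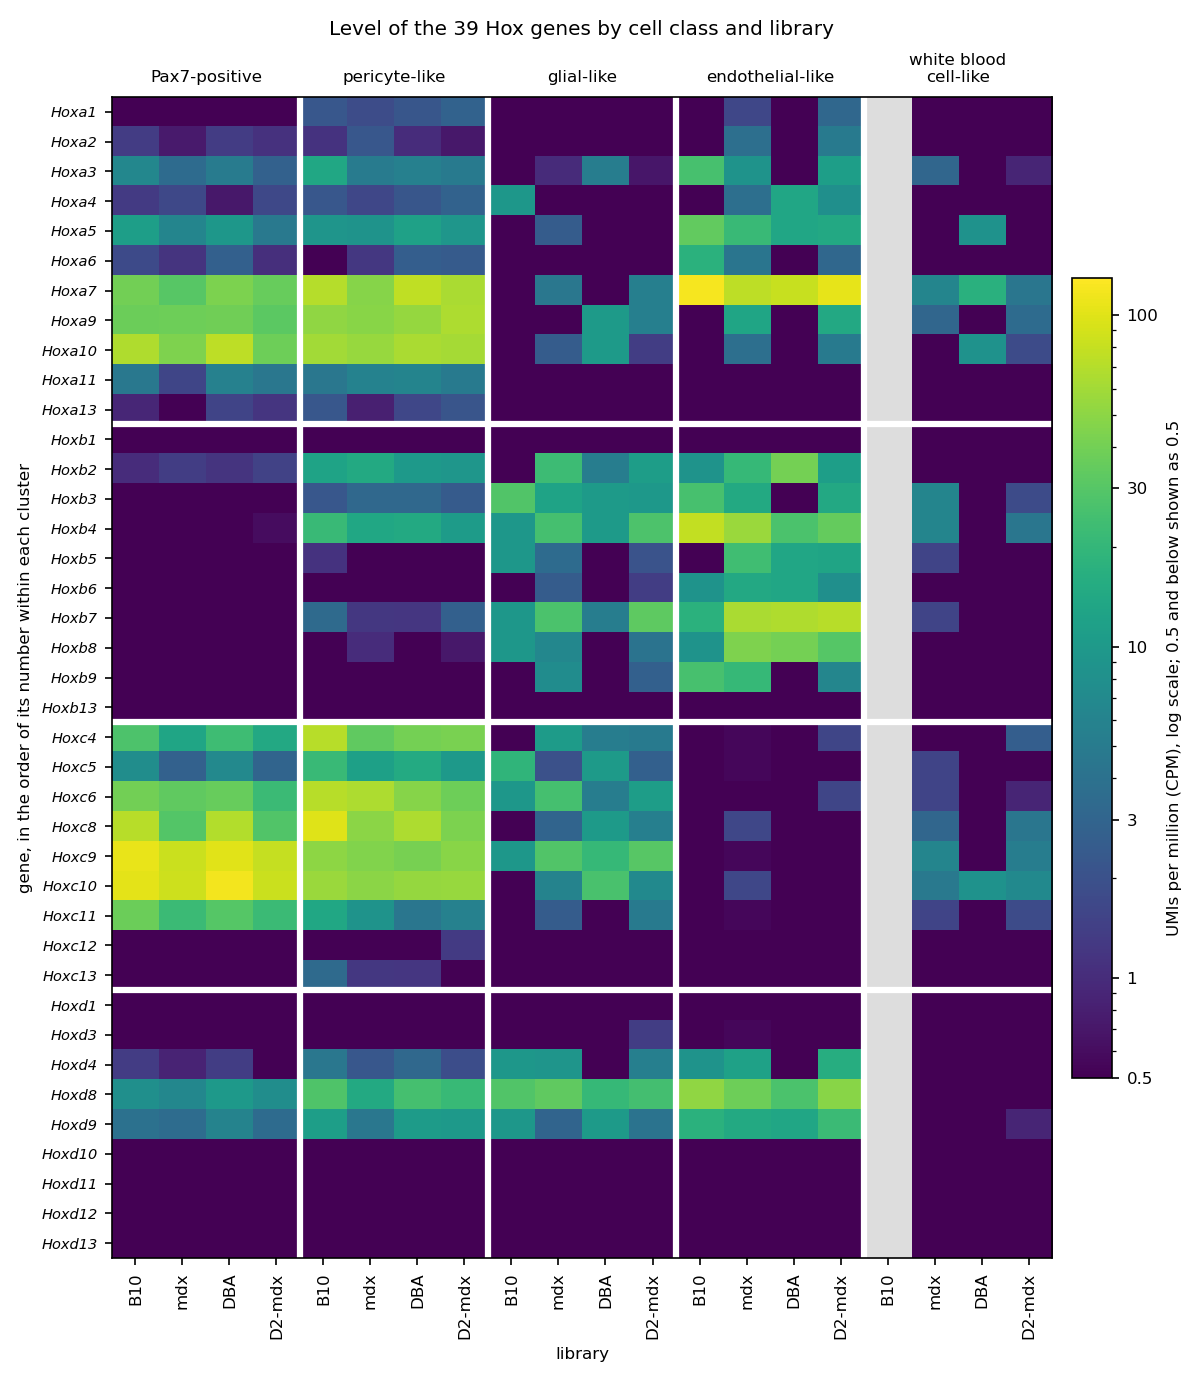
Heat map of the 39 Hox genes (rows, in order of number within each cluster) in 5 cell classes and 4 libraries (columns), as CPM on a log colour scale; the grey column is a class without cells in B10. Pax7-positive cells are bright over Hoxa7 to Hoxa10 and Hoxc4 to Hoxc11 and dark over HoxB, while endothelial-like cells are bright over Hoxa7 and HoxB and dark over HoxC.

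Counted per cell, Hox RNA was sparse but widespread. Each cell was thinned to 3000 UMIs and classed again, and 81.0, 69.8, 80.7 and 70.1% of Pax7-positive cells in B10, mdx, DBA and D2-mdx held a UMI of at least 1 Hox gene. Without thinning the shares were 97.9, 90.5, 98.9 and 90.9%. In white blood cell-like cells the thinned shares were 20.2% in mdx and 12.9% in D2-mdx. A HoxB UMI was found in 0.554 to 0.833% of thinned Pax7-positive cells and a HoxC UMI in 54.7 to 67.6%.

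Hoxc8 showed the same split in shares as in levels. It was counted in 18.5% of thinned Pax7-positive cells in B10 (95% exact interval 17.3 to 19.7%) and 17.9% in DBA (16.4 to 19.6%), against 9.15% in mdx (8.19 to 10.2%) and 8.86% in D2-mdx (7.84 to 9.95%). In white blood cell-like cells the share was 1.12% in mdx and 0.862% in D2-mdx. Hoxc10 was counted in 26.5, 21.2, 28.8 and 23.7% of cells in B10, mdx, DBA and D2-mdx. Intervals cover counting error only.

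Pairs of these genes were counted in the same cells somewhat more often than their separate shares give, in most pairs and libraries. Over the 23 pairs of named genes with at least 20 cells expected in each library, the observed number of thinned Pax7-positive cells with both genes was 0.726 to 1.39 times the expected one in single libraries, and 65 of the 92 values were above 1. The median was above 1 in 19 of the 23 pairs. The median of the 4 libraries ran from 0.934 for Hoxc4 with Hoxc10 to 1.25 for Hoxa9 with Hoxc8. These values describe cells of 1 library each and carry no test. The 23 pairs share genes with each other, and values for pairs of other genes are not given here. The excess is therefore not read as a trait of Hox genes.

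The next comparison asks whether a subset of Pax7-positive cells differs in position. Cells with a UMI of Hhip (a membrane antagonist of Hedgehog ligands), Dlk1 (an imprinted Notch-like ligand), Car3 (a carbonic anhydrase) or Tmem171 were called marked, and numbered 248, 87, 242 and 254 in B10, mdx, DBA and D2-mdx. No Hox gene was called different from unmarked cells. UMIs were summed per class and library and tested with edgeR's quasi-likelihood test across 11717 genes with the library as a term, with Benjamini-Hochberg adjustment. Of the 39 members, 20 passed the filter on low counts and 19 did not, and 0 were called higher and 0 lower, where 0.0683% of all genes were called higher and 0% lower. At an unadjusted p under 0.05 there were 2 (Hoxa3 and Hoxb3), and DESeq2 called 0. Here and in the tests below, shares of all genes called are taken over the genes tested.

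The 10 named Hox genes had log2 folds of marked over unmarked cells between -0.15 and 0.14, and their 95% intervals ran from -0.63 at the lowest to 0.75 at the highest. Hoxc10 was at 94.2, 91.2, 122 and 81.3 CPM in marked cells of B10, mdx, DBA and D2-mdx, a log2 fold of -0.06 (interval -0.39 to 0.26). Hoxc8 was at 63.2, 34.2, 63.1 and 36.4 CPM, a log2 fold of -0.01 (-0.37 to 0.35). The dystrophic libraries were the low ones for Hoxc8 in the marked cells too. A difference smaller than these intervals was not detectable at this depth.

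Hoxa3 and Hoxb3 both had lower values in marked cells. Hoxa3, of the neck region, was lower in marked cells in 4 of 4 libraries at a log2 fold of -0.92 (interval -1.60 to -0.24), with an adjusted p of 1 by edgeR. Hoxb3 had 0 UMIs in marked cells and 37 in unmarked cells, which are far more numerous and held it at 0.298 CPM. A floor of 3 counts over the marked group lies above that level, so the absence of Hoxb3 UMIs sets no bound on its fold. The 8 genes that were called higher in marked cells are no Hox genes and include Gli1, a transcription factor and target of Hedgehog signalling, at a log2 fold of 2.56 ± 0.24 (SE). Markers of vascular smooth muscle summed to 174 CPM in marked cells of mdx and 3.49 to 16.1 in the other 3 libraries, against 1.90 to 6.39 in unmarked cells, and their part in these values was not tested.

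Pericyte-like cells held HoxA and HoxC genes too, with more HoxB. They numbered 82, 595, 430 and 903 in B10, mdx, DBA and D2-mdx and held the 6 pericyte markers at 8936 to 11059 CPM in sum. Their Hox genes summed to 690, 501, 565 and 525 CPM in the same order, against 584, 411, 586 and 392 in Pax7-positive cells, so that the sum was higher in 3 libraries and lower in DBA. The share of HoxB was 4.97 to 6.77% and that of HoxC 46.6 to 56.2%. Of the 39 members 20 were tested. Against unmarked Pax7-positive cells, 11 were called higher and 3 lower (edgeR, adjusted p under 0.05). Of the 11717 genes tested, 26.4% were called higher and 27.2% lower. The median log2 fold of the 20 members tested was 0.68, and that of all genes -0.05.

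Of the 10 HoxB genes 4 were tested, and all 4 were called higher. Hoxb3, Hoxb4 and Hoxb7 were below 1 CPM in Pax7-positive cells and passed the filter through the classes where they are high. Hoxb2 did so too, as it was at 1.21 CPM in unmarked Pax7-positive cells. Hoxa4 at 1.35 CPM and Hoxa6 at 1.67 were not tested. The calls of these 4 HoxB genes, which count among the members called higher, and their p-values therefore add no separate support. Of the untested ones, Hoxb9 had 0 UMIs in pericyte-like cells, Hoxb5 had 1, Hoxb6 had 2 and Hoxb8 had 10. Hoxb4, known for its role in blood stem cells, was at 21.6, 13.7, 14.6 and 10.7 CPM in B10, mdx, DBA and D2-mdx, where Pax7-positive cells had 0.253 to 0.602. Its log2 fold was 5.28 ± 0.45 (SE, n = 4 libraries, adjusted p = 2.43e-07 by edgeR). Hoxb7 rose by 4.63, Hoxb3 by 3.20 and Hoxb2, a gene of the hindbrain, by 3.08 on the log2 scale. All 4 genes were higher in 4 of 4 libraries. The share of the satellite cell genes, no more than 2.36% here, does not bear on this, as Pax7-positive cells hold little HoxB. Endothelial-like cells held more Hoxb4 and Hoxb7. Endothelial markers summed to 11.4 to 56.9 CPM in pericyte-like and 5664 to 6969 in endothelial-like cells, and their part in these values was not tested.

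Of the 9 HoxC genes 7 were tested. Hoxc5 (log2 fold 1.52 ± 0.25), Hoxc4 (1.17 ± 0.20) and Hoxc6 (0.67 ± 0.16) were called higher, Hoxc8 had a log2 fold of 0.35 (interval 0.00 to 0.69, adjusted p = 0.0837 by edgeR), and Hoxc10 (-0.92 ± 0.15), Hoxc9 (-1.09 ± 0.14) and Hoxc11 (-1.94 ± 0.25) were called lower. Hoxc11 was at 13.6, 8.78, 4.46 and 5.76 CPM in pericyte-like cells of B10, mdx, DBA and D2-mdx, and at 37.7, 22.0, 30.2 and 22.1 in Pax7-positive cells. Hoxc9 was at 41.4 to 50.01 CPM, and its range lies below that of Pax7-positive cells, 80.5 to 108. The call of Hoxc8 was gained at an adjusted p of 0.0290 without DBA, and that of Hoxc6 was lost at 0.0708 when the library term was left out.

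The 3 HoxD genes tested were all called higher, and 1 of 6 HoxA genes was. Hoxd8 (1.32 ± 0.18), Hoxd4 (1.45 ± 0.41) and Hoxd9 (0.94 ± 0.25) were called higher, with Hoxd8 at 28.4, 14.7, 25.4 and 21.0 CPM in B10, mdx, DBA and D2-mdx. Without D2-mdx the calls of Hoxd4 (adjusted p = 0.0670) and Hoxd9 (0.0912) were lost. Hoxd4, at 1.04 CPM in unmarked Pax7-positive cells, also passed the filter through the classes where it is high. Its call therefore adds no separate support. Of HoxA genes, Hoxa7 was called higher (0.69 ± 0.14), at 47.4 to 76.3 CPM. Hoxa10 had a log2 fold of 0.10 with an interval of -0.25 to 0.44, and Hoxa9 one of 0.51 (0.06 to 0.95, adjusted p = 0.0541 by edgeR). Hoxa9 was called higher in 8 of 16 alternatives, among them DESeq2 (0.0383) and edgeR without mdx (0.0251), and its adjusted p was 0.225 by edgeR without D2-mdx.

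Vascular smooth muscle markers summed to 1132 to 2459 CPM in this class. Cells with them were left out in an alternative, in which 11 members were called higher and 3 lower. The shares of all genes in this alternative are not given here, so the counts are not read as a trait of Hox genes. Markers of fibroblasts or tenocytes summed to 2581 to 3242 CPM in pericyte-like cells and 824 to 1239 in Pax7-positive cells, and their part in the Hox levels was not tested.

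Glial-like cells held little HoxA, part of the HoxC combination and a larger share of HoxB and HoxD than Pax7-positive cells. They numbered 309 in mdx and 194 in D2-mdx but 20 in B10 and 18 in DBA, where they gave 17 and 32 Hox UMIs. The HoxB share was 44.4% in mdx and 44.1% in D2-mdx, and the HoxA share 4.75 and 6.35%. HoxC made up 32.02 and 32.1% and HoxD 18.8 and 17.4%. Of the 39 members 20 were tested. Against unmarked Pax7-positive cells, 6 were called higher and 12 lower. Of the 11717 genes tested, 19.2% were called higher and 20.6% lower. All of the 6 but Hoxd8 passed the filter through the classes where they are high, so their count adds no separate support. The median log2 fold was -1.63 over the 20 members tested and -0.06 over all genes, and it is the same with Hoxa11, which had no UMI, at its bound.

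The genes called higher were Hoxb7, Hoxb4, Hoxb3, Hoxb2, Hoxd4 and Hoxd8. Hoxb7 was at 27.0 CPM in mdx (54 UMIs) and 32.6 in D2-mdx (47 UMIs), with 1 UMI each in B10 and DBA, and at no more than 0.116 CPM in Pax7-positive cells. Its log2 fold was 7.89 ± 0.64 (SE, n = 4 libraries, adjusted p = 3.21e-07 by edgeR). Hoxb4 (5.68 ± 0.51), Hoxb3 (5.14 ± 0.42), Hoxb2 (3.06 ± 0.49), Hoxd4 (2.78 ± 0.50) and Hoxd8 (1.65 ± 0.22) followed. In unmarked Pax7-positive cells Hoxb7, Hoxb4 and Hoxb3 had 7, 42 and 37 UMIs. Hoxb2 and Hoxd4 had 149 and 131 UMIs there, fewer than Hoxa4 (169), which was not tested. These 5 genes called higher passed the filter through the classes where they are high. Their calls and p-values therefore add no separate support. Hoxd8, at 28.6, 33.5, 20.9 and 24.9 CPM in B10, mdx, DBA and D2-mdx, was higher in 4 of 4 libraries. The glial-like cells of B10 and DBA hold 104824 and 191315 UMIs in all, so the levels there rest on few counts.

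Hoxa10 fell by 4.54 on the log2 scale, Hoxc10 by 3.84, Hoxa9 by 3.796, Hoxc8 by 3.28, Hoxa7 by 3.18 and Hoxc11 by 3.14. Hoxa11 had 0 UMIs in glial-like cells of the 4 libraries and 497 in unmarked Pax7-positive cells, at least 5.01-fold lower with a floor of 3 counts over the group. Hoxa10 stood at 5.66% of its Pax7-positive level in mdx (exact interval 1.84 to 13.2%) and Hoxc10 at 7.12% (3.67 to 12.5%), beside 5.31% for the satellite cell genes there. In D2-mdx Hoxa10 stood at 3.60% and Hoxc10 at 8.30%. Hoxc8 stood at 10.2% (3.72 to 22.2%) in mdx and 19.5% (8.39 to 38.6%) in D2-mdx. The levels of Hoxa10 and Hoxc10 were within counting error of background and were not read as expression.

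Hoxc9 and Hoxc6 behaved differently. They were called lower as well, by 1.96 and 1.14 on the log2 scale, but Hoxc9 stood at 34.1% (25.7 to 44.3%) of its Pax7-positive level in mdx and 37.9% (27.4 to 51.0%) in D2-mdx. Hoxc6 stood at 75.2% (55.5 to 99.8%) in mdx and 50.4% (28.6 to 82.5%) in D2-mdx. In white blood cell-like cells of the same libraries Hoxc9 was at 7.51 and 6.58%. Hoxc5 and Hoxd9 were not called, with log2 folds of -0.29 (interval -1.22 to 0.65) and -0.05 (-0.87 to 0.77). The call of Hoxa3, lower by 1.92, was lost without mdx (adjusted p = 0.108 by edgeR) and without D2-mdx (0.0711).

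Set directly against pericyte-like cells, glial-like cells had 3 members higher and 12 lower, of 20 tested. Of all genes, 18.1% were called higher and 19.6% lower. Hoxb7 (3.26 ± 0.57) and Hoxb3 (1.94 ± 0.39) were higher, and Hoxd4 (1.34 ± 0.50) passed at an adjusted p of 0.0487 and lost its call in 7 of 13 alternatives, among them without B10 (0.0960), without mdx (0.387) and without D2-mdx (0.191). Hoxb2 and Hoxb4 did not differ beyond their error, with log2 folds of -0.02 (interval -0.99 to 0.96) and 0.41 (-0.57 to 1.38). Hoxd8 had a log2 fold of 0.33 (-0.14 to 0.80). Hoxb7, Hoxb3 and Hoxd4 passed the filter through the classes where they are high, so these calls add no separate support. The lower genes were 6 HoxA genes, led after Hoxa11 by Hoxa10 (-4.63 ± 0.34), and Hoxc4, Hoxc5, Hoxc6, Hoxc8, Hoxc9 and Hoxc10. The call of Hoxc9 (adjusted p = 0.00195 by edgeR) was lost when cells were thinned (0.105) and when Pax7 UMIs were allowed in the other classes (0.0564). The call of Hoxc5 was lost without mdx (0.0524) and that of Hoxc11, with an adjusted p of 0.0776, was gained without DBA (0.0260).

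Markers of myelinating Schwann cells summed to 2194 to 28648 CPM in the glial-like class. Without these cells, 4 members were called higher and 12 lower than in Pax7-positive cells, of 18 tested, where 20 were tested with them. The shares of all genes in this alternative are not given here, so the counts are not read as a trait of Hox genes. Glial markers reached at least 3 in a further 95 cells of mdx, 82 of D2-mdx, 23 of DBA and 13 of B10 that also had a Pax7 UMI and were set aside.

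**Figure D2:**
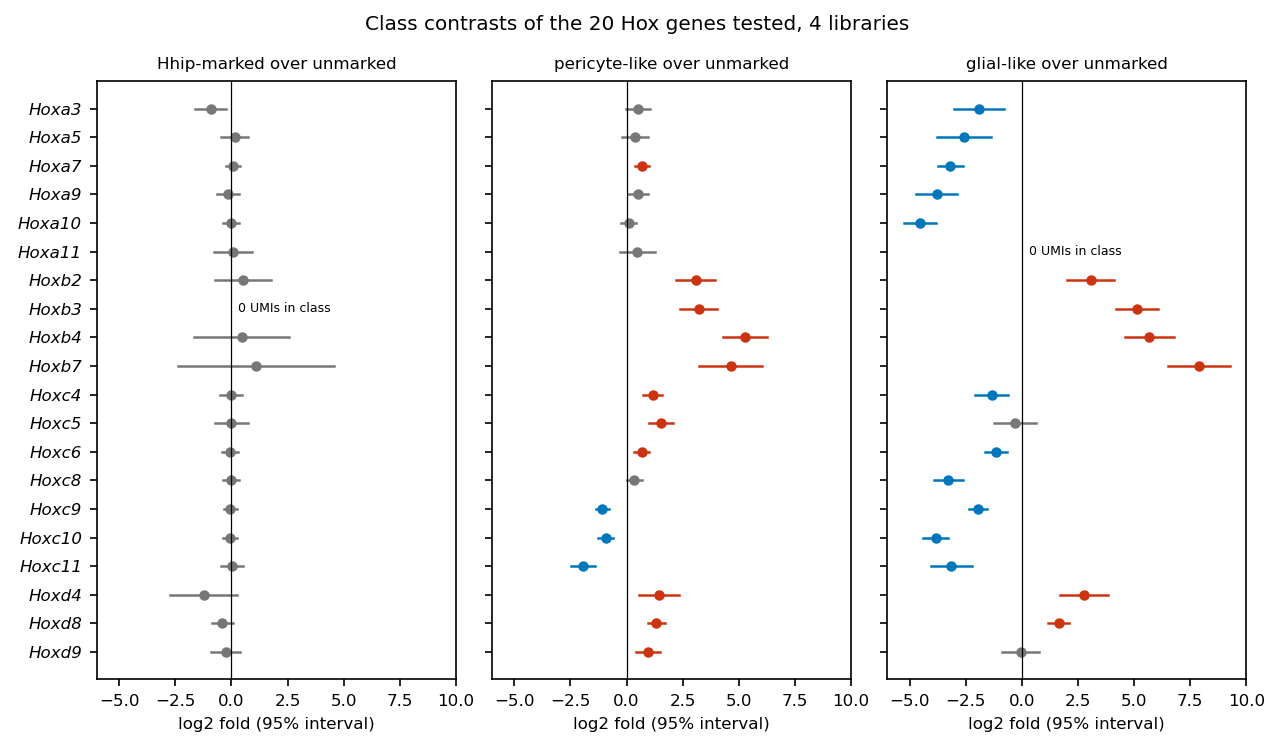
Log2 fold of each of the 20 Hox genes tested (rows) over unmarked Pax7-positive cells, fitted over 4 libraries. The panels show marked Pax7-positive cells (a UMI of Hhip, Dlk1, Car3 or Tmem171), pericyte-like cells and glial-like cells. Points are estimates and lines 95% intervals, red for genes called higher, blue for genes called lower and grey for genes not called. Genes without UMIs in the class have no point. The marked cells show no coloured gene, and Hoxb2 to Hoxb7 lie between 3.06 and 7.89 in the panel of glial-like cells.

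Endothelial-like cells, 224 in mdx and 75 in D2-mdx with 13 in B10 and 6 in DBA, were described without a test. Hoxa7 was their highest Hox gene, at 121, 75.3, 81.0 and 107 CPM in B10, mdx, DBA and D2-mdx. Hoxb7 was at 63.8 CPM in mdx and 71.8 in D2-mdx, Hoxb4 at 56.7 and 35.1, Hoxb8 at 44.7 and 30.3 and Hoxd8 at 38.2 and 47.9. HoxC genes made up 1.17% of Hox UMIs in mdx, 0.709% in D2-mdx and 0% in B10 and DBA. Hoxc9, with 1 UMI in mdx, stood at 0.653% of its Pax7-positive level (interval 0.0165 to 3.64%), below the 2.17% of the satellite cell genes.

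**Figure D3:**
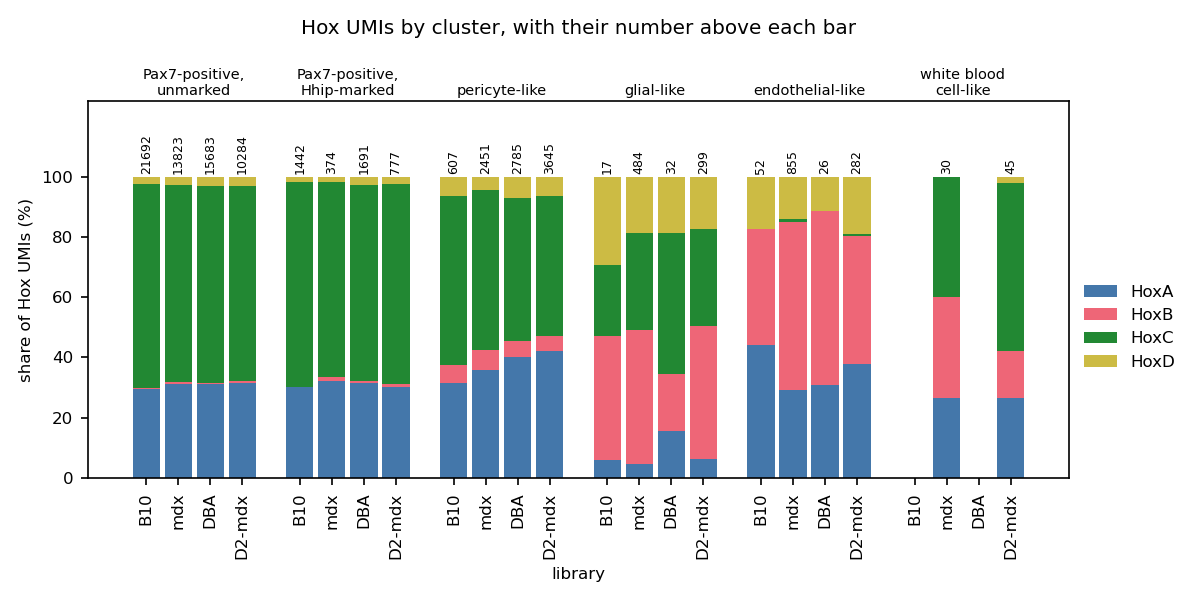
Share of Hox UMIs (percent, stacked bars) from the HoxA, HoxB, HoxC and HoxD clusters in each cell class and library, with the number of Hox UMIs above each bar; classes with fewer than 15 Hox UMIs have no bar. The 8 bars of Pax7-positive cells are nearly alike, with HoxC between 64.7 and 68.0%, and HoxC nearly disappears in endothelial-like cells.

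Dystrophic and control libraries were then compared within Pax7-positive cells. With 1 library a strain, single strains are compared as ratios with exact counting intervals, and the 2 dystrophic were tested against the 2 control libraries. The sum of all Hox genes was 584 CPM in B10 and 411 in mdx, a log2 ratio of -0.51 (interval -0.54 to -0.48). It was 586 CPM in DBA and 392 in D2-mdx, a log2 ratio of -0.58 (-0.62 to -0.55). Between the controls, DBA over B10, the log2 ratio was 0.00 (-0.02 to 0.03).

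In mdx over B10, 20 members reached 1 CPM in either library, and 4 of them were lower by 2-fold or more and 0 higher, where 7.48% of all genes were that much lower and 8.24% higher. In D2-mdx over DBA, 21 members reached 1 CPM, with 4 lower and 1 higher, where 7.89% of all genes were lower and 9.35% higher. The median log2 ratio of these members was -0.60 and -0.50, beside -0.05 and -0.07 over all genes. In DBA over B10, 0 of 21 members were 2-fold higher and 0 lower, where 4.3% and 4.08% of all genes were, and the median was 0.05.

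Tested over both backgrounds, Hox genes were among the genes called lower in dystrophic libraries. The fit (edgeR's quasi-likelihood test on the Pax7-positive sums, with the background, B10 or DBA, as a term) was added after these ratios had been seen and leaves 1 residual degree of freedom. Of the 39 members 22 were tested, and 7 were called lower and 0 higher, where 13% of all genes were called lower and 15.7% higher. The median log2 fold of these members was -0.55, and that of all genes -0.02.

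The 7 genes were Hoxc8 (log2 fold -1.24 ± 0.10 SE, n = 2 libraries a group, adjusted p = 0.0024 by edgeR), Hoxc5 (-1.28 ± 0.21), Hoxa5 (-0.87 ± 0.17), Hoxc4 (-0.82 ± 0.14), Hoxa3 (-0.82 ± 0.21), Hoxa10 (-0.73 ± 0.12) and Hoxc11 (-0.57 ± 0.13). Without the background term 4 remained called (Hoxc8, Hoxc5, Hoxc4 and Hoxa10), where 3.27% of all genes were called lower and 4.86% higher. DESeq2 called 5 lower, and its share over all genes is not given here. Without any 1 of the 4 libraries, which allows no background term, 0 were called, and the adjusted p of Hoxc8 was 0.063 to 0.109 by edgeR. Genotype cannot be told apart from what else the dystrophic libraries share.

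By strain, Hoxc8 was lower by nearly the same amount in both: its log2 ratio was -1.29 (interval -1.39 to -1.19) in mdx over B10 and -1.28 (-1.40 to -1.16) in D2-mdx over DBA, and -0.07 (-0.15 to 0.01) between the controls. Hoxc5, of the same cluster, was at -1.45 (-1.79 to -1.11) and -1.20 (-1.58 to -0.83). These were the 2 members lower by 2-fold in both comparisons. Hoxa11 (-1.55) and Hoxc4 (-1.05) were lower by 2-fold in mdx, at -0.35 and -0.68 in D2-mdx. Hoxa6 (-1.38) and Hoxd4 (-1.83) were lower by 2-fold in D2-mdx, at -0.59 and -0.63 in mdx.

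Hoxa10 was lower by less, with log2 ratios of -0.61 (-0.70 to -0.52) and -0.94 (-1.05 to -0.84). The 2 highest genes moved less: Hoxc10 was at -0.30 and -0.50 and Hoxc9 at -0.36 and -0.33. Of the 10 named genes, 9 had an interval below 0 in mdx over B10, and 10 in D2-mdx over DBA. Hoxa9 was the exception in mdx, at 0.01 (-0.10 to 0.12). Between the controls, DBA over B10, 5 had an interval below 0, 3 had one above 0 and 2 had one that holds 0. These intervals cover counting error only. The share of all genes with such intervals is not given here, so the counts are not read as a trait of Hox genes. The single member that was higher by 2-fold, Hoxa4 in D2-mdx, rests on 47 and 21 UMIs, with an interval of 0.46 to 2.05, and its ratio in mdx was 0.38 (-0.19 to 0.95).

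Differentiation and cycling can differ between healthy and dystrophic muscle, so the ratios were also taken in Pax7-positive cells without a UMI of Myog, Mki67, Top2a, Cdkn1c or the 4 genes of the marked group, which were 3405, 2052, 1952 and 1938 cells in B10, mdx, DBA and D2-mdx. There Hoxc8 was at 30.4 CPM in mdx against 73.9 in B10, and at 30.4 in D2-mdx against 68.6 in DBA. Its log2 ratios were -1.28 (-1.44 to -1.13) and -1.17 (-1.34 to -1.01). The sum of all Hox genes stood at -0.49 and -0.50, beside -0.51 and -0.58 over all Pax7-positive cells. Cells in such states can lack a UMI of these genes, so the part of differentiation and cycling was not tested.

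In pericyte-like cells of the same libraries Hoxc8 was lower in both dystrophic strains, and lower in DBA than in B10 as well. The sum of Hox genes differed less in D2-mdx. In mdx over B10, with 607 Hox UMIs in B10, the sum of Hox genes was at -0.46 (-0.59 to -0.33), Hoxc8 at -0.99 (-1.35 to -0.62) and Hoxc4 at -1.11 (-1.54 to -0.67). In D2-mdx over DBA the sum was at -0.11 (-0.18 to -0.03), Hoxc8 at -0.58 (-0.81 to -0.35), Hoxc10 at 0.03 (-0.20 to 0.26) and Hoxa10 at -0.05 (-0.26 to 0.17). For Hoxc8 and Hoxa10 the intervals of D2-mdx over DBA did not overlap between the 2 cell classes. The same was true of Hoxa9, Hoxc4, Hoxc9 and Hoxc10, and the share over all genes is not given here. Between the controls, DBA over B10, the sum in pericyte-like cells was at -0.29 (-0.41 to -0.16), where Pax7-positive cells gave 0.00. There Hoxc8 was at -0.59 (-0.94 to -0.23) and Hoxc4 at -0.83 (-1.24 to -0.39). Hoxc10 was at -0.09 (-0.53 to 0.38) and Hoxa10 at 0.08 (-0.35 to 0.52). Pericyte-like cells of B10 gave 87 Hoxc8 UMIs.

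**Figure D4:**
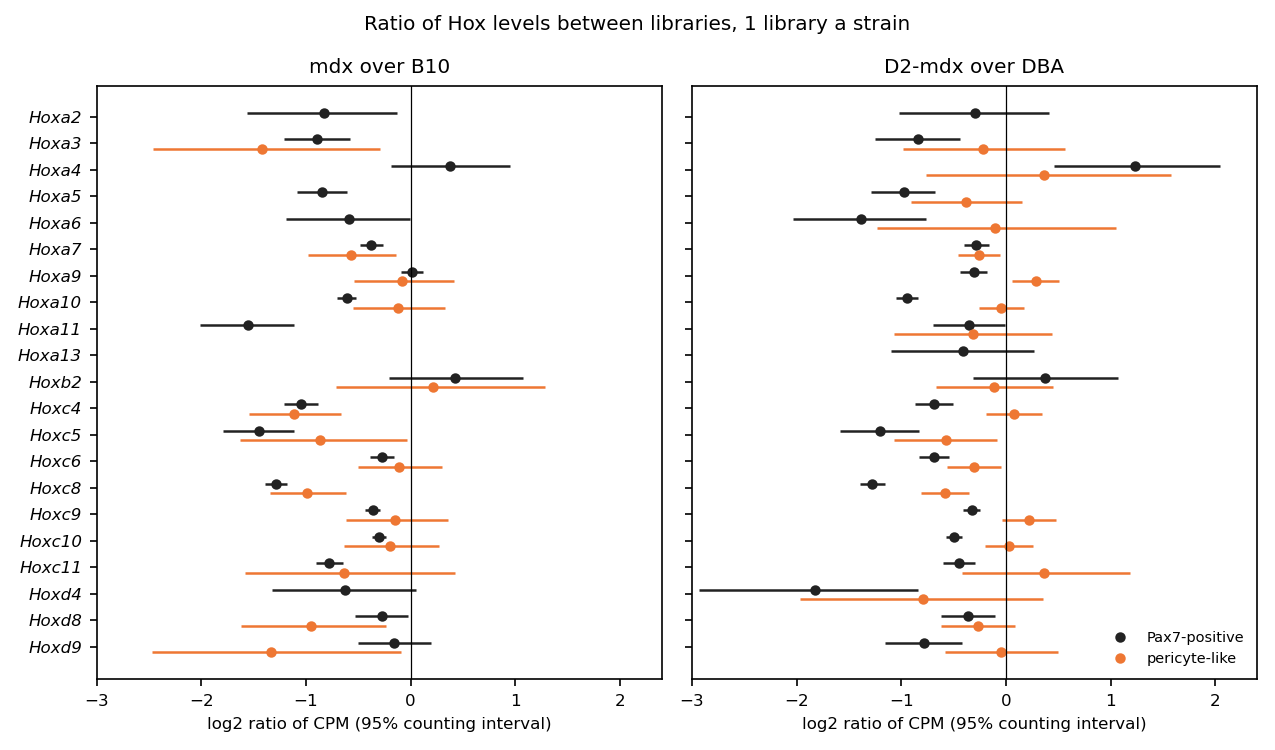
Log2 ratio of CPM for the Hox genes with at least 1 CPM in mdx over B10 and in D2-mdx over DBA; black points are Pax7-positive cells, orange points pericyte-like cells with at least 10 UMIs in each library, and lines exact 95% counting intervals, with 1 library a strain. Most black points lie left of 0 in both panels, with Hoxc8 at -1.29 and -1.28, and several orange points of D2-mdx over DBA lie near 0.

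Non-coding genes of the Hox clusters differed between the classes as well. Of 11 non-coding genes listed, 7 are in the tables and 4 were tested. Hotair, an antisense RNA of the HoxC cluster, was at 10.4, 6.86, 9.07 and 7.58 CPM in Pax7-positive cells of B10, mdx, DBA and D2-mdx and fell by 4.86 in pericyte-like and 4.99 in glial-like cells on the log2 scale. Hotairm1, at the low-number end of HoxA, rose by 3.43 in pericyte-like cells, where it was at 40.5 to 51.7 CPM. Hoxb3os rose by 3.13 in pericyte-like and 4.14 in glial-like cells, and Hoxd3os1 by 0.98 and 1.75. Hoxb3os was at 2.21 CPM in unmarked Pax7-positive cells, below Hoxaas3 (2.28), which was not tested. It passed the filter through the classes where it is high, so its calls add no separate support. In marked cells none of the 4 was called.

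Hotairm1 went against the Hox genes between strains. It was at 2.298 CPM in B10 and 6.68 in mdx, and at 2.19 in DBA and 6.66 in D2-mdx, log2 ratios of 1.54 (1.18 to 1.91) and 1.60 (1.19 to 2.03).

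The TALE partners differed by class. All 9 were tested, and in pericyte-like cells 5 were called higher and 3 lower than in Pax7-positive cells: Meis2 rose by 2.88 and Pbx3 by 1.23, and Pknox1 fell by 1.66. Of all genes 26.4% were called higher and 27.2% lower there. In glial-like cells 1 was called higher (Pbx3) and 5 lower, with Meis2 lower by 2.75, where 19.2% of all genes were called higher and 20.6% lower. In marked cells 0 of 9 were called.

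Other genes of regional identity also differed between the classes. Of 20 listed, 12 were tested, with 5 higher and 7 lower in pericyte-like cells and 0 higher and 9 lower in glial-like cells, beside the shares of all genes just given. Lbx1, a gene of migrating limb muscle precursors, was at 31.5 to 60.7 CPM in Pax7-positive cells and 0.406 to 3.41 in pericyte-like cells. Msc, En1, Pax3, Tbx1 and Tbx4, a hindlimb gene, were lower in pericyte-like cells as well, and Shox2 and Meox2 rose by 7.87 and 8.14. Shox2, Meox2 and Tbx18 were at 0.594, 0.802 and 1.30 CPM in unmarked Pax7-positive cells. They passed the filter through the classes where they are high. Their calls, which count among the 5 higher, therefore add no separate support. Tbx5, the forelimb counterpart of Tbx4, was at 0.0289 CPM in Pax7-positive cells of mdx and had no UMI in those of B10, DBA and D2-mdx. Between strains 2 of the listed genes were lower and 3 higher by 2-fold in mdx over B10, and 1 lower and 1 higher in D2-mdx over DBA. Pax3 had log2 ratios of -1.07 (-1.24 to -0.90) and -1.08 (-1.30 to -0.87).

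Of 21 Polycomb and trithorax genes, 20 were tested, with 3 higher and 8 lower in pericyte-like cells and 2 higher and 3 lower in glial-like cells, and 0 in marked cells. These are fewer than the shares of all genes give, except for the genes lower in pericyte-like cells. The shares were 26.4% higher and 27.2% lower in pericyte-like cells and 19.2% higher and 20.6% lower in glial-like cells. Ezh2, the methyltransferase of Polycomb complex PRC2, fell by 1.16 in pericyte-like cells and rose by 0.46 in glial-like cells. Between strains the median log2 ratio of the 21 was -0.13 in mdx over B10 and -0.15 in D2-mdx over DBA, with 1 lower by 2-fold in mdx (Pcgf2, -1.08) and 1 higher in D2-mdx (Cbx2, 1.21).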

How the data were processed

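The authors aligned the 10X Genomics 3′ reads to mm10 and deposited unnormalized UMI counts per gene and barcode (Cell Ranger 3.0.1, per the labels); Cell Ranger drops reads that fit several genes and counts the sense strand. Cells outside 1000 to 5000 detected genes, or above 8% mitochondrial UMIs, were removed. Scrublet (scanpy 1.11.5) scored doublets, and the highest scores were removed up to 0.008 of the cells per 1000 cells. Kept cells held 37016795 to 52742197 UMIs per library.

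UMIs were summed per class and library. Class contrasts used edgeR 4.0.16 (TMM, filterByExpr, quasi-likelihood, library as a term) on R 4.3.3, with p-values adjusted over all genes but the class-defining ones and a threshold of 0.05. Class sums of 1 library share mice and preparation. With the library as a term, these p-values measure how class differences vary between 4 libraries of different strains. That spread is taken over all classes in the fit together. Both the fits and the intervals were tested on simulated data. Single strains were compared as ratios, and the 2 dystrophic with the 2 control libraries by edgeR with the background as a term. A gene was named with at least 10 CPM in Pax7-positive cells of a library or, for Hox genes and the other lists, past the threshold in a class contrast; Hoxa4, Hoxa6, Hoxa13, Hoxb13, Hoxd1, Hoxd12, Hoxd13, Hoxb8, Cbx2, Tbx5 and Gli1 were named after their values were seen where the rule did not name them. The members and lists were chosen with earlier results of these data known. Other tools were DESeq2 1.42.0, Python 3.11.15, numpy 2.4.6, scipy 1.17.1, pandas 2.3.3 and matplotlib 3.10.9. Alternatives changed the test, scaling, filter, cells, class markers and libraries. Pax7 UMIs in other classes, strain ratios in pericyte-like cells and the dystrophic against control test were added after seeing the data. Values of some listed genes are not reported here.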

Additional observations from a re-analysis of the deposited data

Results flagged for a closer look

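Hoxa9 ran in opposite directions in 2 cell classes of the same libraries. In D2-mdx over DBA its log2 ratio was -0.31 (interval -0.43 to -0.18) in Pax7-positive cells and 0.28 (0.06 to 0.51) in pericyte-like cells. Each ratio compares 1 library with 1 library, and the difference between the classes was not tested.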

How the results depend on the processing

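Counts of members called kept within 1.5 times of the values in the report in most alternatives. The shares of all genes in the alternatives are not given in this section. The counts below therefore show only how the values move with the setting and are not read as a trait of Hox genes. With cells thinned to 3000 UMIs, 6 members were higher in pericyte-like cells, 2 in glial-like cells, and 0 higher and 7 lower in glial-like against pericyte-like cells, when 11 members could be tested. Without a filter, 10 were higher in glial-like cells and 5 against pericyte-like cells, and with the compared classes alone 1 was. Leaving out a library gave 9 to 12 higher and 3 lower in pericyte-like cells, 6 higher and 11 to 13 lower in glial-like cells, and 2 to 3 higher and 11 to 13 lower between them. Marked cells had 0 calls in all alternatives run. No called gene changed sign. Between strains, over all cells that passed, 7 members were 2-fold higher in mdx over B10 and 1 in DBA over B10, and 2 were lower in D2-mdx over DBA. With a minimum of 10 CPM, 2 were lower in mdx, and 0 higher and 1 lower in D2-mdx. In pericyte-like cells 9 were lower in mdx, 2 higher and 1 lower in D2-mdx and 4 lower in DBA over B10. In DBA over B10, 1 was lower in cells without Myog, cell-cycle, Cdkn1c or marked-group UMIs and 1 after thinning. The cause was not tested. Over the alternatives the log2 ratio of Hoxc8 ran from -1.44 to -0.99 in mdx over B10 and from -1.57 to -0.58 in D2-mdx over DBA. In dystrophic over control cells, 4 members were lower without the background term, 0 without any 1 library and that term, where fewer samples remain, and 0 higher in each. Depth limits the glial-like cells of B10 and DBA, where 1 UMI is worth several CPM.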

Other observations

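Within Pax7-positive cells, Hox levels were also set side by side in cells with and without a UMI of Myog, Mki67, Top2a, Cdkn1c or the marked group, a split made after seeing the data and described without a test. Hoxa10 was lower in the cells with such UMIs in mdx, at 40.5 against 49.9 CPM, a log2 ratio of -0.30 (interval -0.45 to -0.15), and in D2-mdx, at 35.5 against 42.2 (-0.25, -0.42 to -0.07). In B10 and DBA its ratio was -0.11 (-0.24 to 0.02) and -0.07 (-0.20 to 0.07). Hoxc9 had ratios of -0.22, -0.18 and -0.19 in mdx, DBA and D2-mdx and -0.02 in B10. Hoxc8 had ratios of -0.18 to 0.02. The widest gap was that of Hoxa5 in mdx (-0.79, -1.19 to -0.39), on 105 and 114 UMIs, with ratios of -0.08, 0.05 and -0.32 in B10, DBA and D2-mdx. Hoxa9 went the other way in mdx (0.20, 0.04 to 0.37).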
